A study of Mus musculus with 2 samples.

Results

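The cytosolic ribosomal protein genes are described here in the cardiac ventricles of adult mice. They were taken as the rows of the authors' deposited table whose gene symbol is that of a protein of the large subunit (Rpl and a number or letter code, with Rplp0, Rplp1 and Rplp2) or of the small subunit (Rps), without the hyphen that marks pseudogenes. The rule gave 87 of 38355 rows, 51 of the large and 36 of the small subunit. Against the GENCODE M21 annotation, 5 of these rows are typed as pseudogenes (Rps12l1, Rps12l2, Rps3a2, Rps3a3 and Rps4y2), and the row with the symbol Rpl24 carries the identifier that M21 gives to Zbtb11, a zinc finger gene. That leaves 81 ribosomal protein genes.

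The labels name 2 samples, vTBX5KO and Flox, both from the ventricles of C57BL/6 mice aged 16 weeks. The vTBX5KO mice carried Myh6-MerCreMer together with Tbx5LDN/LDN, and the Flox mice carried Tbx5LDN/LDN alone. Myh6-MerCreMer is a Cre recombinase driven by a cardiomyocyte promoter and switched on by an oestrogen receptor ligand, so the recombination concerns cardiomyocytes and not the other cells of the ventricle. Per the labels' protocols, the mice of both samples were dosed with TX when 12 weeks old, for 3 days at a daily 30 mg/kg, and tissue was taken 4 weeks later. The deposited comparison is named group B against group A, and which genotype each letter stands for is stated neither in the labels nor in the table. All directions below are therefore those of group B relative to group A.

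The pooled means resolved into 6 libraries, 3 per letter, with size factors from 0.89 to 1.56 in group B and from 0.61 to 1.16 in group A. Total reads per library were not recovered. It is not stated whether libraries that share a letter are from different mice, and p-values thus reflect differences among libraries that may be technical. In the authors' deposited table, Tbx5 itself, the targeted gene, had a mean of 513 and a log2 fold change of 0.92 (adjusted p 0.0575). Of the cardiomyocyte markers, Ttn had the highest mean of the table at 1263444 and Myh6 had 579178, which fits the labelled tissue.

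A ribosome has a large subunit, which forms peptide bonds, and a small subunit, which reads the messenger RNA, and nearly every cytosolic ribosomal protein is present in a single copy in each particle. The messenger RNAs of these proteins are short, abundant and controlled together through a pyrimidine tract at their start. Their abundance has left many processed pseudogenes in mammalian genomes, some of them nearly identical to the parent gene. A few members have paralogues with restricted expression, of which Rpl3l, found in heart and skeletal muscle, is the best known in this tissue.

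The similarity to other genes is shown first, because it bears on how many reads each row holds. The stretches below are 60 bases from the middle of the coding sequence, on the coding strand, 5′ to 3′, from GENCODE M21 (build GRCm38), with capitals where a copy or paralogue differs from the first sequence of its set. The Rpl3 set compares the ubiquitous gene (chr15:80077791-80091868, minus strand) with its processed pseudogene Rpl3-ps1 (chrX:13202571-13203780, plus strand) and with the muscle paralogue Rpl3l (chr17:24727820-24736143, plus strand).
Rpl3: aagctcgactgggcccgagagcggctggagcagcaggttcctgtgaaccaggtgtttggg
Rpl3-ps1: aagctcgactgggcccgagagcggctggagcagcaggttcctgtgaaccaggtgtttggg
Rpl3l: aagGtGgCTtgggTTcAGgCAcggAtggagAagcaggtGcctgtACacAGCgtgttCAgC
Rpl3-ps1 was identical to Rpl3 over all 60 bases, and Rpl3l matched at 39 and differed at 21.

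The small subunit gene Rps29 (chr12:69157722-69159186, minus strand) and its copy Gm14303 (chr2:172509521-172509691, minus strand) are shown because the copy, not the gene, held nearly all the reads. The large subunit gene Rpl38 (chr11:114668524-114672331, plus strand) and Rpl38-ps2 (chr6:140746960-140747172, minus strand) are shown for the same reason.
Rps29: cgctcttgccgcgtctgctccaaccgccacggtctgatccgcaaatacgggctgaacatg
Gm14303: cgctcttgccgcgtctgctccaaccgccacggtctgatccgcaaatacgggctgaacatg
Rpl38: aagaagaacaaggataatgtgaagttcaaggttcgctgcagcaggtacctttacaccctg
Rpl38-ps2: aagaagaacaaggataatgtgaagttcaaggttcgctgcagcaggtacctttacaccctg
Both copies matched their parent at 60 of 60 bases in this stretch.

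Rps26 (chr10:128624534-128626747, minus strand), which lies beside the messenger RNA where it leaves the small subunit and is one of the genes called below, is shown beside Rps26-ps1 (chr8:107439131-107439579, minus strand), the gene that shares most of its coding windows.
Rps26: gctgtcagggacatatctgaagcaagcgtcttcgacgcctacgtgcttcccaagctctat
Rps26-ps1: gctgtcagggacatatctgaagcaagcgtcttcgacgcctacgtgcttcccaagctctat
These 60 bases were identical, while 26.8% of the 50-base windows of the Rps26 coding sequence occurred in no other gene.

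Across the 81 ribosomal protein genes, 66 had at least 1 near copy, defined as another gene whose M21 transcripts share at least 25% of the 50-base windows of the coding sequence. The median was 3 near copies per gene and the highest was 33, for Rpl21. In 25 genes no window was unique, in 40 genes a share above 0% and under 50% was unique, and in 16 genes at least 50% was. The deposited mean normalized count, which is reads divided by a size factor and averaged over all libraries, differed between these classes when set per 1000 coding bases. Its median was 56.4 in the 25 genes with no unique window, 690 in the 40 genes between, and 2511 in the 16 genes with at least 50% unique windows. Of the 25 genes with no unique window, 20 had a mean under 100, against 2 of the 16 most unique genes.

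**Figure D1:**
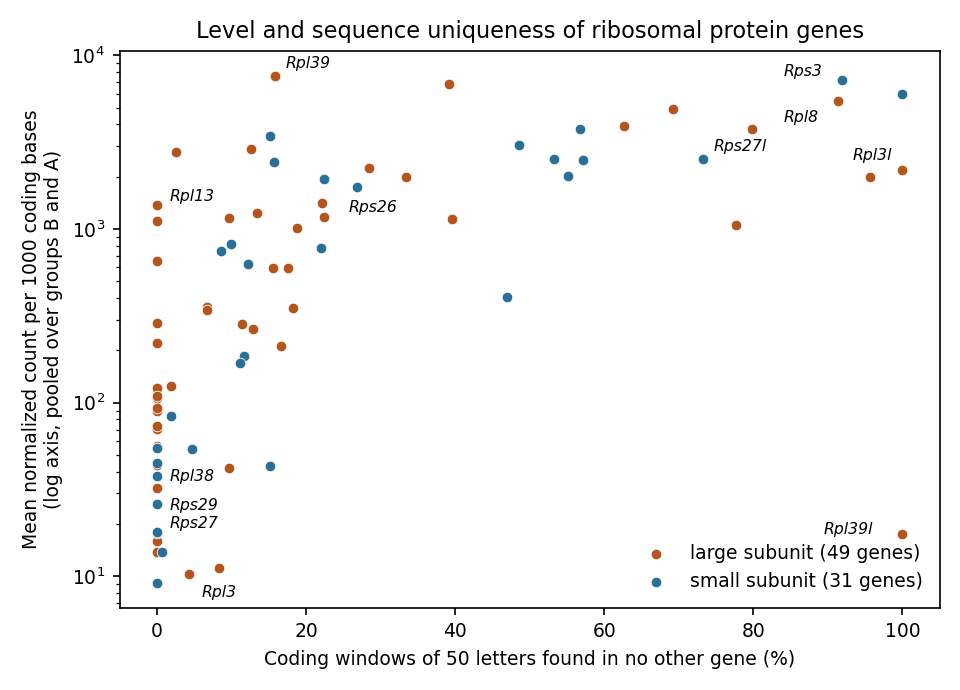
The x axis gives the percentage of 50-letter coding windows found in no other gene, and the log y axis the authors' mean normalized count per 1000 coding bases, pooled over groups B and A. Each point is a gene of the large or small subunit. Genes with no unique window had a median of 56.4, and Rpl39l, at 17.6 with 100% unique windows, is the low point at the right; Rpl10l, with no reads, is not drawn.

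Over the 81 genes, Spearman's rho between the level per 1000 coding bases and the unique share was 0.66, and it was 0.62 with windows of 36 and 0.67 with windows of 75 letters. It is a description across genes, which share libraries and a genome and are not independent replicates. The counting of reads that match several genes, a step not given in the sources used here, may enter these levels, and its part in them was not tested. For a gene with near copies, a low mean from low abundance and one from shared sequence cannot be told apart.

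Near copies often had a higher mean than the gene. Leading copies were not all pseudogenes: that of Rpl29 was the protein-coding gene Uimc1, with a mean of 363. The reads of such a gene need not belong to the ribosomal protein family. For 28 of the 63 genes with a near copy in the table, the leading copy had a higher mean than the gene. Rpl3 had a mean of 12.5 while Rpl3-ps1 had 265. Rpl38, which in mouse embryos is known for its part in the translation of Hox messenger RNAs, had 6.90 against 322 for Rpl38-ps2. Rps29, a zinc-binding protein of the small subunit, had 4.48 against 586 for Gm14303. Rps13 had 6.28 against 355 for Rps13-ps2, and Rpl10a had 48.2 against 422 for Rpl10a-ps1. Of the 31 such genes with a mean under 100, the leading copy was higher in 21. Of the 18 with a mean of at least 500 it was higher in 2, Rplp2 and Rpl14. The leading copy of Rplp2 was Wdr89, also a protein-coding gene, with a mean of 877 against 695. Rpl14 had 926 against 1444 for Rpl14-ps1. Rps3a1 had 148 against 991 for Rps3a3, which is itself among the 87 rows. For Rpl21 the leading copy was BC004004, an annotated gene with a mean of 3660 against 45.0 for Rpl21, and it shares 53.5% of the Rpl21 windows.

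**Figure D2:**
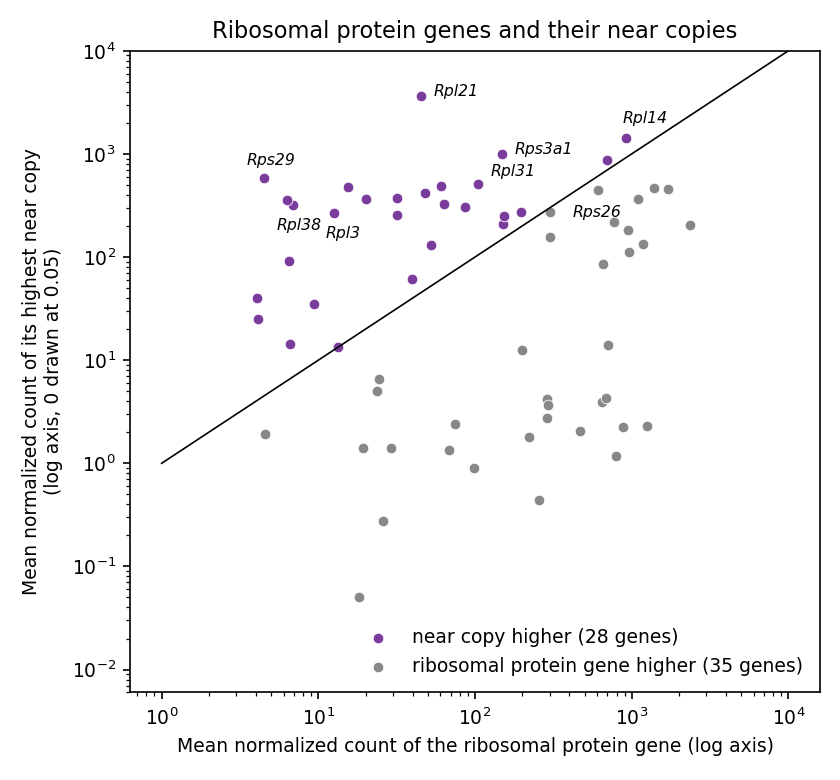
The log x axis gives the mean normalized count of each of 63 ribosomal protein genes, and the log y axis that of its near copy with the highest mean; the line marks equality and 1 copy with a mean of 0 is drawn at 0.05. The near copy is the higher in 28 genes, above the line, and the gene in 35, below it.

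The rows together held 0.327% of all normalized counts, and 221 hyphenated pseudogene rows held 0.0322%. That second share leaves out pseudogenes named without a hyphen, such as Gm10275 with a mean of 493 and Gm5805 with 470. Of the 87 members, 85 had reads. The 2 without were Rpl10l, a retrogene known from testis, and Rps3a2. The authors' table gave an adjusted p for 66 members. Another 15 had a mean below 16.0, the lowest mean with an adjusted p in the table. The remaining 4 (Rpl13, Rps4x, Rpl39 and Rpl15) had means above it and no adjusted p, as did 194 genes in all.

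In the deposited means, the highest large subunit gene was Rpl4 at 4763, followed by Rpl8, which lies near the site of peptide bond formation, at 4218. The highest of the small subunit was Rps3, which lines the messenger RNA entry channel, at 5278. Per 1000 coding bases the order changed, and Rpl39, a small protein of the exit tunnel, led at 7589, ahead of Rps3 at 7210 and the stalk protein Rplp1 at 6843. Rpl39 had a mean of 1184 over 156 coding bases. Whether reads outside the coding sequence were counted is not given, and they would weigh most in such short genes. The lowest gene with reads per 1000 coding bases was Rps16 at 9.21, next to Rpl3 at 10.3 and Rpl35 at 11.1. These levels are authors' values pooled over both groups, so no spread over libraries can be given for genes with a mean of 100 or more.

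The deposited comparison called few of these genes. In the authors' deposited table, 2 of the 66 tested members were lower in group B at an adjusted p under 0.05 and 0 were higher, and the percent called over all tested genes was 2.49% lower and 1.5% higher. The members' share, 3.03% lower, was near that background. In the authors' deposited table both fell by 0.53 on the log2 scale, 1.45-fold lower in group B than in group A. In bulk tissue, fewer cells of a type and less RNA per cell cannot be told apart.

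In the authors' deposited table, Rpl3l, the large subunit paralogue of Rpl3 in heart and skeletal muscle, had a mean of 2673 and a log2 fold change of -0.53 (standard error at most 0.13, adjusted p 0.00339). Its coding windows were all unique, so no other annotated gene shares its 50-base sequence. Rps26 (chr10:128624530-128626506 in the table) had a mean of 606 and a log2 fold change of -0.53 in the same table (standard error at most 0.12, adjusted p 0.000521). Rps26 ranked 125th and Rpl3l 217th by adjusted p among all tested genes. Rps26 has 4 near copies, of which 3 have a row in the authors' deposited table. Those with an adjusted p did not pass the test there. Med21 had a log2 fold change of -0.10 (adjusted p 0.926), and Rps26-ps1 one of -0.17 (adjusted p 0.833). Med21 is a protein-coding gene, and its reads need not belong to the Rps26 family. The copy Gm6654 had a mean of 0.209 and no adjusted p. Both called genes have means above 100, for which reads per library were not recovered, so whether the libraries of the groups overlap is not known.

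The next smallest adjusted p in the authors' deposited table was that of Rps15, a protein of the head of the small subunit, at 0.134 with a log2 fold change of -0.31. Across the 66 tested members the log2 fold changes had a median of -0.06, with the middle 50% between -0.14 and 0.08, against a median of -0.00 over all 13230 tested genes. Of these 66 members, 47 (71.2%) had a log2 fold change within 0.2 of 0, against 60.1% of all tested genes. The standard error of a single member was at most 0.21 in the median.

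**Figure D3:**
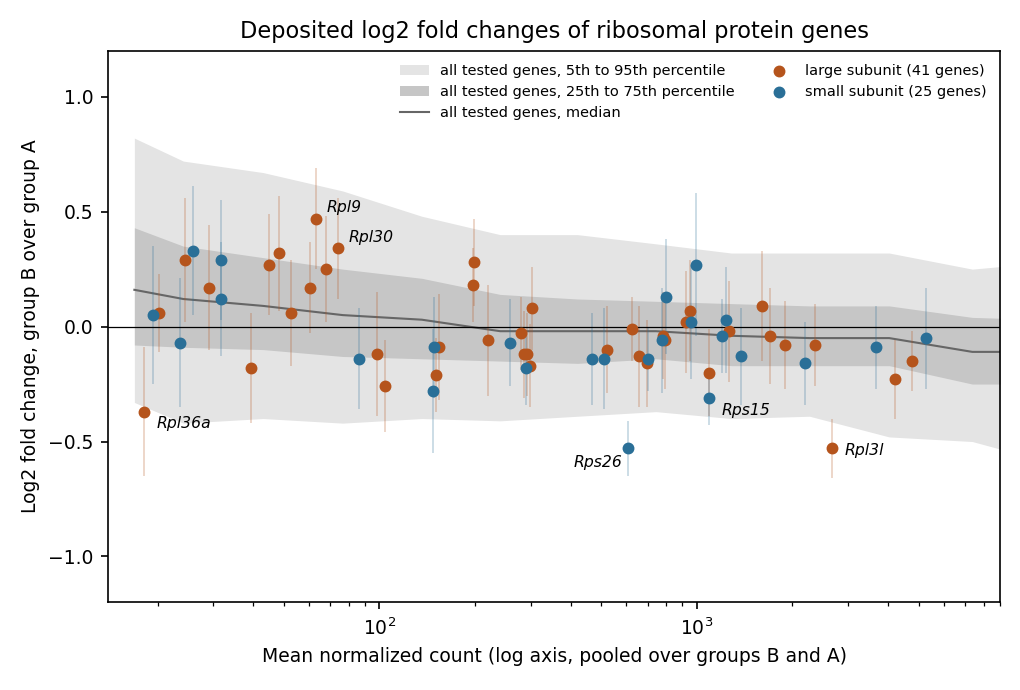
The log x axis gives the mean normalized count pooled over groups B and A, and the y axis the authors' log2 fold change of group B over group A, with bars of 1 standard error bound. Points are the 66 tested members and grey bands the percentiles of all tested genes at the same mean. Rps26 and Rpl3l, both at -0.53, lie below the 5th percentile, and the members with low means lie mostly above 0.

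The medians of the subunits lay close together, and their difference was not tested. The 41 tested rows of the large subunit had a median log2 fold change of -0.04 (25 below 0), and the 25 of the small subunit a median of -0.07 (17 below 0), with 1 called lower in each. At the low end of the large subunit, after Rpl3l, stood Rpl36a at -0.37 (adjusted p 0.635), Rpl31 at -0.26 (adjusted p 0.652) and Rpl8 at -0.23 (adjusted p 0.63) in the authors' deposited table. At its high end stood Rpl9 at 0.47 (adjusted p 0.276), Rpl30 at 0.34, Rpl10a at 0.32, Rpl17 at 0.29 and Rpl35a at 0.28, all with an adjusted p of 0.276 or more in that table. In the small subunit the low end after Rps26 and Rps15 held Rps3a1 at -0.28, Rps18 at -0.18 and Rps9 at -0.16. Its high end held the ubiquitin fusion gene Rps27a at 0.33, Rps7 at 0.29, the pseudogene row Rps3a3 at 0.27, Rps27l at 0.13 and Rps25 at 0.12. None of these small subunit rows other than Rps26 passed the authors' test. The 3 stalk proteins, which recruit the elongation factors to the large subunit, had log2 fold changes of -0.20 for Rplp0, -0.16 for Rplp2 and -0.08 for Rplp1, with adjusted p from 0.738 to 0.924 in the authors' deposited table.

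The log2 fold change moved with the level. The 19 tested members with a mean under 100 had a median of 0.17, against 0.09 for all tested genes in that range. The 16 members with a mean from 100 to 500 had a median of -0.11 against -0.00 for all genes, and the 31 with a mean of at least 500 had -0.08 against -0.04. In both the lowest range had the highest median. Spearman's rho between mean and log2 fold change was -0.34 over the 63 tested ribosomal protein genes and -0.20 over all 13230 tested genes. The 14 tested genes with no unique window had a median of 0.18 and the 14 with at least 50% unique windows one of -0.09. Level and uniqueness go together in these genes, so their parts cannot be told apart here.

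Short genes as a whole were set beside the members, since most ribosomal protein genes are short. Of the 66 tested members, 62 had a genomic span of at most 10000 bases. All 3755 tested genes of that span had a median log2 fold change of -0.06, the same as those 62 members. With a mean of at least 500 as well, the 878 genes of that span had a median of -0.12, against -0.08 for the members with a mean of at least 500.

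Paralogues were compared per 1000 coding bases. Rpl3l had a level of 2184 against 10.3 for Rpl3, which is 212-fold higher, with 100% and 4.30% of windows unique. Rpl3-ps1 shares 91.1% of the Rpl3 windows and had a mean of 265 against 12.5. That ratio of Rpl3l to Rpl3 therefore need not be the ratio of their transcripts. The log2 fold change of Rpl3, which had no adjusted p, was 0.59, opposite in sign to that of Rpl3l, and the difference between the genes was not tested. Rps27l, a paralogue known as a target of p53, had 2511 against 18.0 for Rps27, of whose windows none was unique. Rpl39l, known from testis, had 17.6 against 7589 for Rpl39, with 100% and 15.9% of windows unique. Rpl22l1 had 595 against 4891 for Rpl22, with 15.6% and 69.2% unique. Rpl7l1 had 1056 against 1167 for Rpl7, with 77.7% and 22.4% unique. The pseudogene row Rps4y2 had 188 against 818 for Rps4x, with 82% and 9.96% unique. Rpl10l had no reads against a level of 106 for Rpl10. The unique share differed within these pairs, so their ratios also need not be those of their transcripts. Of these paralogues other than Rpl3l, those with an adjusted p (Rps27l, Rpl22l1, Rpl7l1 and Rps4y2) had log2 fold changes from -0.09 to 0.13 in the authors' deposited table.

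For the 34 members with a mean under 100 and above 0, whole reads per library were recovered from the deposited means, and 27 of them had a mean of at least 5. Rpl3 had 14.1, 13.3 and 21.3 normalized reads in group B libraries, against 6.06, 8.79 and 11.5 in group A libraries. All 3 group B libraries were above all 3 group A libraries. The means were 16.2 ± 4.43 in group B and 8.79 ± 2.74 in group A (SD, n = 3 each), a ratio of 1.85. The limma-voom log2 fold change of Rpl3 was 0.89 (standard error 0.41, unadjusted p 0.0485, Benjamini-Hochberg adjusted p 0.372). Its copy Rpl3-ps1, which holds more of the family's reads, had a log2 fold change of 0.25 (adjusted p 0.419) in the authors' deposited table.

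Rpl9 had 85.6, 67.2 and 70.7 normalized reads in group B libraries, against 51.0, 40.2 and 64.2 in group A libraries, again without overlap. Its limma-voom log2 fold change was 0.56 (standard error 0.24), and its adjusted p of 0.328 was the smallest of any member in that fit. Rpl21 had 49.9, 46.5 and 53.9 in group B libraries, against 42.4, 42.7 and 34.6 in group A libraries. The gap between the nearest Rpl21 libraries was small, and the limma-voom adjusted p was 0.633. Rpl36a, which lies at the exit site of transfer RNA, was the member without overlap in the other direction, with 15.3, 13.3 and 16.8 in group B libraries, against 21.6, 20.1 and 21.4 in group A libraries. Its limma-voom log2 fold change was -0.50 (standard error 0.31, adjusted p 0.507).

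**Figure D4:**
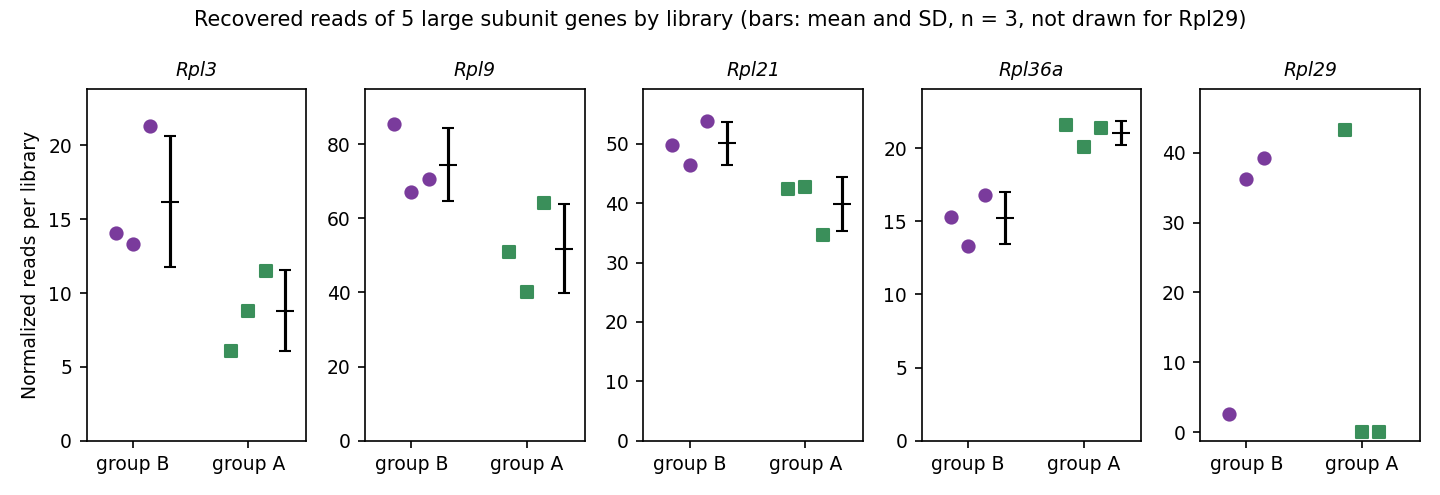
Points are normalized reads of each library (y axis, from 0), with group B left of group A, for Rpl3, Rpl9, Rpl21, Rpl36a and Rpl29; bars give the mean and SD of 3 libraries and are not drawn for Rpl29. The groups do not overlap in the first 4 genes, and in Rpl29 both groups hold high and low libraries.

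Of the 27 members, 3 were higher in every group B library than in any group A library (11.1%) and 1 was lower in every one (3.7%). Over all 5343 genes with recovered reads and a mean of at least 5, these percentages were 13.3% and 5.5%, so the members' shares were near the background. The ratio of group B to group A was above 1 in 21 of the 27 members (77.8%), against 63.1% of all these genes. By limma-voom 0 of the 27 members passed an adjusted p of 0.05, and the authors' adjusted p also called 0 of them, while the percent called by limma-voom over all genes fitted was 0.487%. At an unadjusted p under 0.05 limma-voom gave 3 members, Rpl9 and Rpl3 among them, against 13.3% of all genes.

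Libraries of the groups overlapped in 23 of the 27 members, and a few of these follow. Rps6, the small subunit protein phosphorylated by S6 kinase, had 12.1, 12.6 and 18.0 normalized reads in group B libraries, against 12.1, 15.1 and 9.88 in group A libraries. Its groups overlapped. Rpl10, which is needed for the joining of the subunits, had 70.9, 57.6 and 97.7 in group B libraries, against 60.6, 64.1 and 57.7 in group A libraries. Rps27a had 21.1, 30.3 and 38.2 in group B libraries, against 22.5, 21.4 and 21.4 in group A libraries. In both, 1 or more group B libraries lay below a group A library, and in Rps27a the group A libraries were the more alike. Rpl38 had 3.83, 5.17 and 10.1 in group B libraries, against 6.92, 8.79 and 6.59 in group A libraries, and the group A libraries lay within the range of the group B libraries.

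Summed over the 27 members, the normalized reads were 961, 913 and 1125 in group B libraries, against 879, 871 and 866 in group A libraries. Every group B sum was above every group A sum, and the ratio of the means was 1.15. All 5343 genes summed the same way also did not overlap, with a ratio of 1.09. With TMM scaling, an alternative chosen after seeing the data, the members' sums were 882, 886 and 1103 in group B libraries, against 926, 915 and 893 in group A libraries. They then overlapped, with a ratio of 1.05 for the members and 1.00 for all genes. The 17 members of the large subunit had sums of 687, 677 and 808 in group B libraries, against 647, 624 and 595 in group A libraries. The 10 of the small subunit had 274, 236 and 317 in group B libraries, against 232, 246 and 272 in group A libraries, and these overlapped. The median limma-voom log2 fold change of the 27 members was 0.29, against 0.13 for all genes, and with TMM scaling it was 0.16, against -0.01. That scaling moved the median of all genes by 0.13, left 18 rather than 21 members above 0, and left 0 at an unadjusted p under 0.05. These genes are the least covered ribosomal protein genes, and the well covered ones had a median of the other sign.

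The remaining parts of the translation apparatus gave a few called genes, all lower in group B. Calls over all tested genes also leaned that way, with 2.49% lower and 1.5% higher. Among all genes with a mean of at least 500, 204 were called lower and 47 higher. The lists were not tested against these shares. Of 5 ribosomal proteins that the symbol rule leaves out, 4 were tested and none passed. Rpsa had a log2 fold change of -0.19, the scaffold protein Gnb2l1 one of -0.12 and Rpl36al one of 0.07 in the authors' deposited table. Of 76 mitochondrial ribosomal protein genes, 66 were tested and 2 were lower, with a median of -0.06. They were Mrpl38 at -0.38 (adjusted p 0.0477) and Mrpl12 at -0.88 (adjusted p 0.0495) in the authors' deposited table. The 22 tested hyphenated pseudogenes held 0 calls by the authors' adjusted p, and among the 46 tested near copies of members 2 were lower. Gm14303, the copy of Rps29, was one of them, at -0.41 (adjusted p 0.0282).

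Among 18 tested genes of translation elongation and other messenger RNAs with a pyrimidine tract, 4 were lower in group B and 0 higher, while the list's median was 0.02. In the authors' deposited table, Eef2, which moves the ribosome along the messenger RNA, had a mean of 20589 and a log2 fold change of -0.35 (adjusted p 0.000881). Eef1a2, the muscle and neuron form of the factor that delivers aminoacyl transfer RNA, had a mean of 17115 and a log2 fold change of -0.54 (adjusted p 0.00472). The exchange factor Eef1b2 had -0.43 (adjusted p 0.000829) and the cytoplasmic poly(A)-binding protein Pabpc4 had -0.49 (adjusted p 0.00634) in the same table. The called share of this short list was not tested against the background.

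Each of 3 other lists held 1 call. In the authors' deposited table these were the RNA polymerase I subunit gene Polr1e at -1.23 (adjusted p 6.83e-10, 18 genes tested), Eif3g of initiation factor 3 at -0.44 (adjusted p 0.00794, 36 tested) and the kinase gene Rps6ka2 at -0.78 (adjusted p 2.46e-12, 27 tested). The 58 tested ribosome biogenesis genes held 0 calls by the authors' adjusted p, with a median of -0.10 and a smallest adjusted p of 0.172, for Ltv1 at -0.29. The unadjusted p is not in the table, so counts at an unadjusted threshold cannot be given for these lists.

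**Figure D5:**
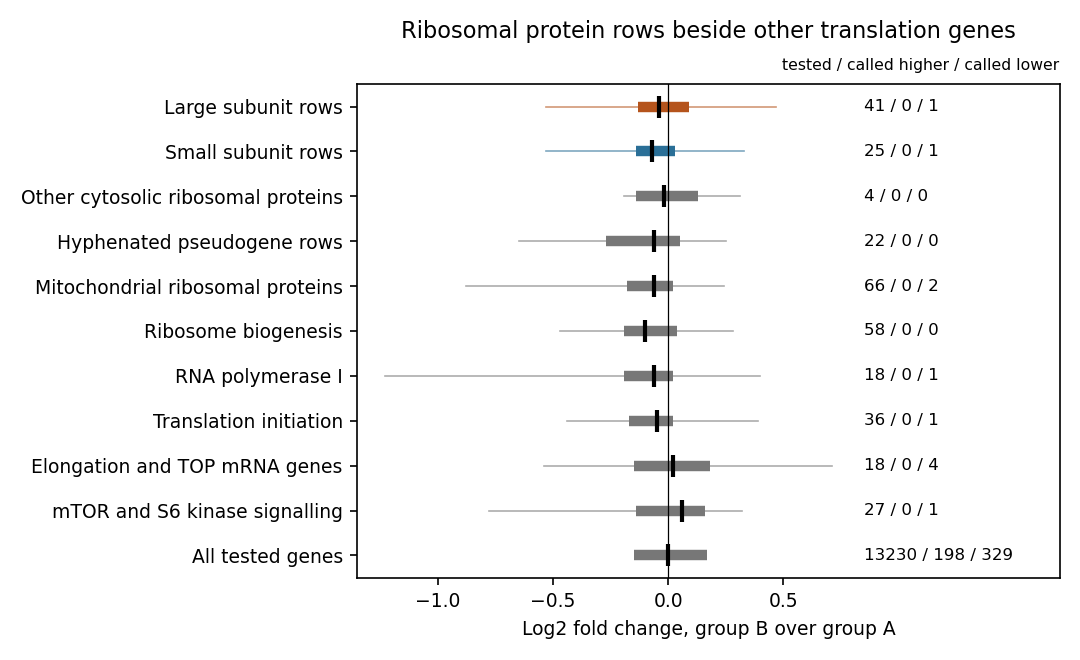
Thick bars span the middle 50% of the authors' log2 fold changes of group B over group A (x axis), thin lines their whole range (not drawn for all tested genes) and ticks the median; figures at the right give the genes tested, called higher and called lower at an adjusted p under 0.05. The medians of both subunits, -0.04 and -0.07, lie within the middle 50% of all tested genes.

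Markers of other cell types moved in this comparison as well. All 5 tested platelet genes passed the test in the authors' deposited table as higher in group B, with a median log2 fold change of 1.18, and 2 of 8 macrophage genes and 1 of 8 fibroblast genes were higher, with medians of 0.22 and 0.21. The 5 red cell genes had a median of 0.48 and 0 passed the authors' test. Of 10 cardiomyocyte genes, 1 was lower, with a median of -0.13. None of 7 endothelial and 3 tested skeletal muscle genes passed, and no germ line gene was tested. Reads per library were recovered for 5 of the 6 platelet genes, whose normalized reads summed to 710, 329 and 198 in group B libraries, against 56.2, 61.6 and 128 in group A libraries, without overlap. For macrophages and fibroblasts they were recovered for 1 gene each. Cd68 had 88.8, 63.5 and 62.9 in group B libraries, against 73.5, 65.3 and 67.5 in group A libraries. Tcf21 had 87.6, 56.9 and 52.8 in group B libraries, against 72.7, 69.1 and 65.9 in group A libraries. Both of these overlapped. Their part in the values of the ribosomal protein genes was not tested.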

How the data were processed

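RNA was sequenced from cardiac ventricles, and 1 deposited table was used. Per the submitters' processing notes, Bowtie2 2.0 and DESeq2 were among the tools and the genome build was mm9. The counting step was not given in the sources used here. For each gene the table gives, per the file headers, the mean normalized count (a signal, pooled over all libraries). It also gives a log2 fold change of group B over group A and an adjusted p-value, and all were computed by the authors. The deposited log2 fold changes need not equal the plain ratio of group means. Rpl3 had a ratio of recovered means of 1.85 and a deposited change of 1.5-fold. For Rpl29 the 2 values were 1.8 and 1.04, and for Rps16 0.521 and 0.801. Deposited and limma-voom values are thus not on the same footing. Coordinates in it equal those of GENCODE M21 (GRCm38) for 25481 of 36602 matched identifiers (69.6%), so they are given as GRCm38. Calls used an adjusted p threshold of 0.05. Standard errors were bounded from above by inverting the Benjamini-Hochberg adjustment.

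Genes with single reads give the 6 steps that 1 read is worth in each library, and for means under 100 the whole reads of a gene are the 6 whole numbers that, multiplied by the steps, add up to its deposited mean (matched to 15 digits). Exactly 1 such set was found for 13389 of 13403 genes (99.9%). Each library's letter came from the direction of its single-read genes, and numbers run from the deepest library. These reads were fitted with limma-voom (limma 3.58.1, R 4.3.3) over 5343 genes with a mean of at least 5, divided by the recovered size factors, and limma-voom called 26 of them. The planned test by genotype was not run, since no mapping of letters to genotypes is given. The recovery of reads, the limma-voom fit and the bound on standard errors were tested on simulated data, and the sequence sharing was not.

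Sequence sharing was computed from M21 transcripts on both strands with windows of 50 letters (36 and 75 as alternatives), using the longest complete coding sequence of each gene. With strandedness not given in the sources used here, reads of a gene and an antisense partner cannot be told apart. The members and all gene lists were chosen with earlier results of these data known. Named genes are the called members, the paralogue pairs and stalk proteins, the 5 highest and 5 lowest log2 fold changes and the highest means of each subunit, and in other lists the called genes and up to 4 with the smallest adjusted p. A few genes that the rule names are not reported here. Near copies and members shown by library were chosen after their values were seen. Alternatives were other thresholds, filters on the mean, TMM scaling and leaving out each library. Figures were drawn with matplotlib 3.10.9 and tables made with pandas 2.3.3 under Python 3.11.15.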

Additional observations from a re-analysis of the deposited data

How the results depend on the processing

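The count of 2 lower and 0 higher members was the same at adjusted p thresholds of 0.01 and 0.1 and without the pseudogene rows and the Zbtb11 row, an alternative chosen after seeing the data. The median log2 fold change of all members stayed between -0.09 and -0.04 under the planned filters, and subtracting the median of all genes left it at -0.06. With members of a mean under 100 alone, also chosen after seeing the data, it was 0.17, and 0.17 for the large subunit; the cause was not tested. No member with recovered reads was called by limma-voom, with TMM scaling or without any single library (count from 0 to 0). The limma-voom log2 fold change with 1 library left out ran from 0.58 to 1.06 for Rpl3, from 0.40 to 0.70 for Rpl9, from 0.22 to 0.35 for Rpl21, from -0.56 to -0.41 for Rpl36a and from 0.39 to 4.30 for Rpl29. Over all genes fitted, limma-voom called 26, with TMM scaling 34, and without group B replicate 1, 2 and 3 it called 51, 4 and 170, and without group A replicate 1, 2 and 3 it called 1, 0 and 18. No paired analysis was possible because the labels give no replicate numbers that the libraries share. Reads per library exist for low genes alone, so single-library effects on Rpl3l and Rps26 could not be computed.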

Other observations

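Rpl29, a large subunit protein known for binding heparin, varied between libraries within both letters. It had 2.56, 36.2 and 39.3 normalized reads in group B libraries, against 43.3, 0 and 0 in group A libraries, from 4, 49 and 35 whole reads in group B and 50, 0 and 0 in group A. Libraries B2, B3 and A1 were thus high and B1, A2 and A3 low, and neither letter was uniform. The gene was singled out after its values were seen. Of 13389 genes with recovered reads, 1 (Rpl29) had B2, B3 and A1 each more than 4 times every one of B1, A2 and A3 and above 5 normalized reads. That split was taken from Rpl29 itself, so the count does not show how rare genes with any such split are. Rpl29 has 18 near copies and 9.68% unique windows. Its log2 fold change in the authors' deposited table was 0.06 (adjusted p 0.949), and it was 2.06 by limma-voom (standard error 1.60, adjusted p 0.621).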
